A study of Bos taurus with 4 samples.

Results

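The RNA-seq comparison of primary bovine mammary epithelial cells titled HH with those titled LL was described across the whole transcriptome. The members were all genes with at least 100 counts summed over both libraries, which left 12804 of the 31021 genes listed in the deposited count table. The cells came from the mammary gland of Chinese Holstein cows, a dairy breed kept on corn and hay, and were obtained from the tissue by culture and enzyme digestion. The series describes cells from cows with a high (4.85%) or a low (3.41%) milk fat percentage. HH and LL have 1 RNA-seq library each, and the small RNA libraries of the series were not analysed here. What the codes stand for is not spelled out, and the label for phenotype has the same entry, high milk fat, on HH and on LL, so each direction below is HH relative to LL. The sources used here do not say how many cows or cultures stand behind a library. With 1 library a group, no difference has a replicate check, no p-value was computed, and every comparison is between these libraries and not between the milk fat groups.

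The mammary epithelium has an inner luminal layer that makes milk proteins, lactose and fat, and an outer basal layer of contractile myoepithelial cells. Luminal cells are joined by tight junctions built from claudins, and the layers differ in their keratins, the intermediate filaments of epithelia. The gland also takes immunoglobulins across its epithelium into milk and secretes antimicrobial proteins such as lactoferrin.

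The HH library held 17369144 counts and the LL library 16318951. A count was present for 21512 genes in HH and for 21273 in LL, and 20140 genes had a count in both. The 12804 genes at or above the minimum carried 99.4% of the counts of each library. Levels (CPM, counts divided by library size) were scaled by the trimmed mean of M values, and each log2 ratio of HH over LL has an exact (Clopper-Pearson) 95% interval that covers counting error of reads only. A gene summing to 100 counts has an interval of about 0.60 on either side of its log2 ratio, one of 1000 counts about 0.18, and one of 10000 counts about 0.057, so differences among the scarcer genes are the less certain ones. The libraries had close values for most genes. The quartiles of the log2 ratio lay at −0.23 and 0.24 around a median of −0.01, and 6194 genes lay above 0 and 6610 below it. Across genes, which are not independent replicates, the counts of both libraries had a Spearman correlation of 0.965.

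A gene was called when its whole interval lay past 2-fold. This held for 240 genes higher in HH (1.87% of those tested) and 128 higher in LL (1.0%), or 2.87% in all, and 12436 genes were neither. The genes called higher in HH took 2.38% of all counts in HH and 0.785% in LL. The genes called higher in LL took 1.41% of all counts in HH and 4.54% in LL. In the LL library the 128 genes thus held a larger share than the 240 did in either library, and in the HH library the 240 held the larger share. LTF, IGHG1 and IGCGAMMA alone made up 0.805% of all counts in HH and 2.71% in LL. LTF encodes lactoferrin, the iron-binding defence protein of milk, and the other two are immunoglobulin gamma heavy chain genes.

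**Figure D1:**
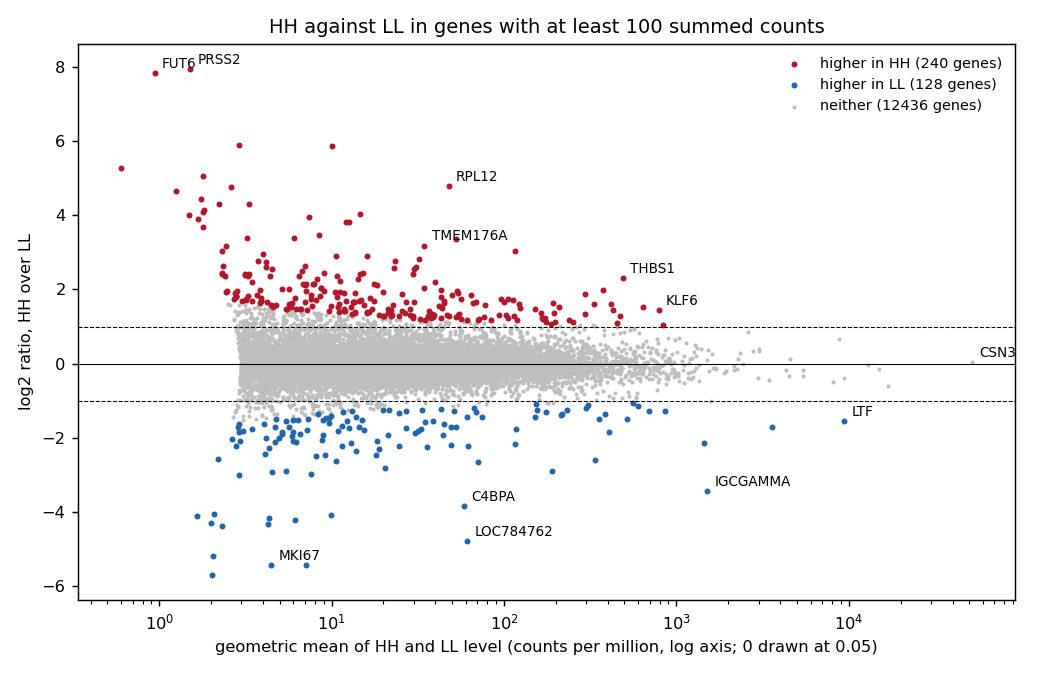
Each point is 1 of the 12804 genes. The horizontal axis is the geometric mean of the HH and LL levels in CPM on a log axis, with a level of 0 drawn at 0.05, and the vertical axis is the log2 ratio of HH over LL. Red points are the 240 genes called higher in HH, blue points the 128 called higher in LL, grey points the other 12436, and dashed lines mark 2-fold. The widest ratios lie among scarce genes, and LTF and IGCGAMMA stand out among abundant ones.

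The genes with most RNA were largely shared. Of the 15 genes with most counts in each library, 13 were in both sets, and they were led by CSN3, the kappa-casein gene, with 935253 counts in HH and 824358 in LL. The top 15 took 15.8% of all counts in HH and 17.8% in LL. Of the 17 genes in either set, only LTF, IGHG1 and IGCGAMMA were past 2-fold. The whey protein gene PAEP, for beta-lactoglobulin, had 195607 counts in HH and 112278 in LL (log2 ratio 0.66.) The beta-casein gene CSN2 had 241731 in HH and 331524 in LL (log2 ratio −0.59.) These ratios were far larger than their counting error, and neither was past 2-fold.

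The libraries were checked against markers of the labelled cell type and of others that mammary tissue can hold. All 8 luminal markers were present, at a summed 34448 CPM in HH and 40570 in LL, most of it casein RNA. The caseins of this list lay below 0, CSN2 at −0.59 and CSN1S1 at −0.14. All its other markers lay above 0, from EPCAM at 0.25 and ELF5 at 0.26 up to KRT18 at 1.74, and the list median was 0.30. Of the 8, only KRT18 was called, higher in HH. Basal and myoepithelial markers summed to 2054 CPM in HH and 858 in LL, and 3 of the 6 were called higher in HH, the keratins KRT5, KRT14 and KRT17. Of the others, ACTA2, smooth muscle actin, had 9183 counts in HH and 4479 in LL, and TP63, the basal transcription factor, had 517 in HH and 386 in LL. RNA of other cell types was also present in both libraries. Endothelial markers summed to 706 CPM in HH and 870 in LL, fibroblast markers to 645 in HH and 521 in LL, and none of these 11 was called. Macrophage and neutrophil markers stood at 216 CPM in HH and 254 in LL, B and plasma cell markers at 199 in HH and 211 in LL, T and natural killer cell markers at 49.6 in HH and 33.3 in LL, and adipocyte markers at 197 in HH and 305 in LL. The neutrophil marker S100A9 was called higher in LL. JCHAIN made up most of the B and plasma cell sum, with 190 CPM in HH and 172 in LL, and the other 4 markers of that list lay lower in HH, of which MZB1 was called. Among the adipocyte markers LEP, for leptin, had 1 count in HH and 0 in LL and ADIPOQ, for adiponectin, had 21 in HH and 14 in LL, and nearly all of that sum was FABP4. In such bulk libraries, fewer cells of a type and less RNA per cell cannot be told apart.

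The share of called genes differed with abundance. Among 6953 genes with fewer than 1000 summed counts, 146 were higher in HH and 78 in LL, which is 3.22%. Among 5390 genes with 1000 to fewer than 10000 counts, 82 were higher in HH and 35 in LL, or 2.17%. Among the 461 genes with 10000 counts or more, 12 were higher in HH and 15 in LL, or 5.86%. This most abundant tier was the only one of the 3 with more calls toward LL, by a small margin. The 15 include the immunoglobulin chain symbols IGHG1, IGCGAMMA, LOC101908138 and LOC100294952, which share sequence. They also include SAA3, whose call ended under scaling by library totals. Intervals are narrowest in this tier, so a given ratio past 2-fold is called more readily there. The part of interval width in the shares of the tiers was not tested.

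In the most abundant tier, 10 named genes were called higher in HH, and the 8 furthest past 2-fold are given here. THBS1, for the matrix protein thrombospondin 1, had 19326 counts in HH and 3541 in LL (log2 ratio 2.31, interval 2.26 to 2.36). CTGF, a matricellular growth factor, had 19191 in HH and 6016 in LL (1.54). KLF6, a zinc finger transcription factor, had 22911 in HH and 7706 in LL (1.43). MGC151921, described as an odorant-binding protein-like gene, had 10056 in HH and 2481 in LL (1.88). SCNN1A, a subunit of the epithelial sodium channel, had 8331 in HH and 3000 in LL (1.34). CLDN4, KRT17 and KRT5 complete the 8 and are given with their families below.

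In the same tier, 13 named genes were called higher in LL, and the 8 furthest past 2-fold follow. IGCGAMMA had 8124 counts in HH and 79951 in LL (log2 ratio −3.44, interval −3.47 to −3.40), and IGHG1 had 35065 in HH and 104231 in LL (−1.71). LTF had 96586 in HH and 257998 in LL (−1.55). M-SAA3.2, for the mammary form of serum amyloid A, had 2423 in HH and 13337 in LL (−2.60), and CHI3L1, a chitinase-like protein of inflamed tissue, had 9702 in HH and 21447 in LL (−1.28). PIGR, the receptor that carries dimeric immunoglobulin A and pentameric immunoglobulin M across epithelia, had 4291 in HH and 9915 in LL (−1.35). SLC27A6, a fatty acid transport protein, had 3753 in HH and 9581 in LL (−1.49). QSOX1, a secreted enzyme that forms disulfide bonds, had 5480 in HH and 13966 in LL (−1.49). The S100 calcium-binding proteins S100A9 and S100A12, both abundant in neutrophils, were also higher in LL, S100A9 with 76 counts in HH and 286 in LL and S100A12 with 122 in HH and 371 in LL. The part of such cells in these differences was not tested.

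**Figure D2:**
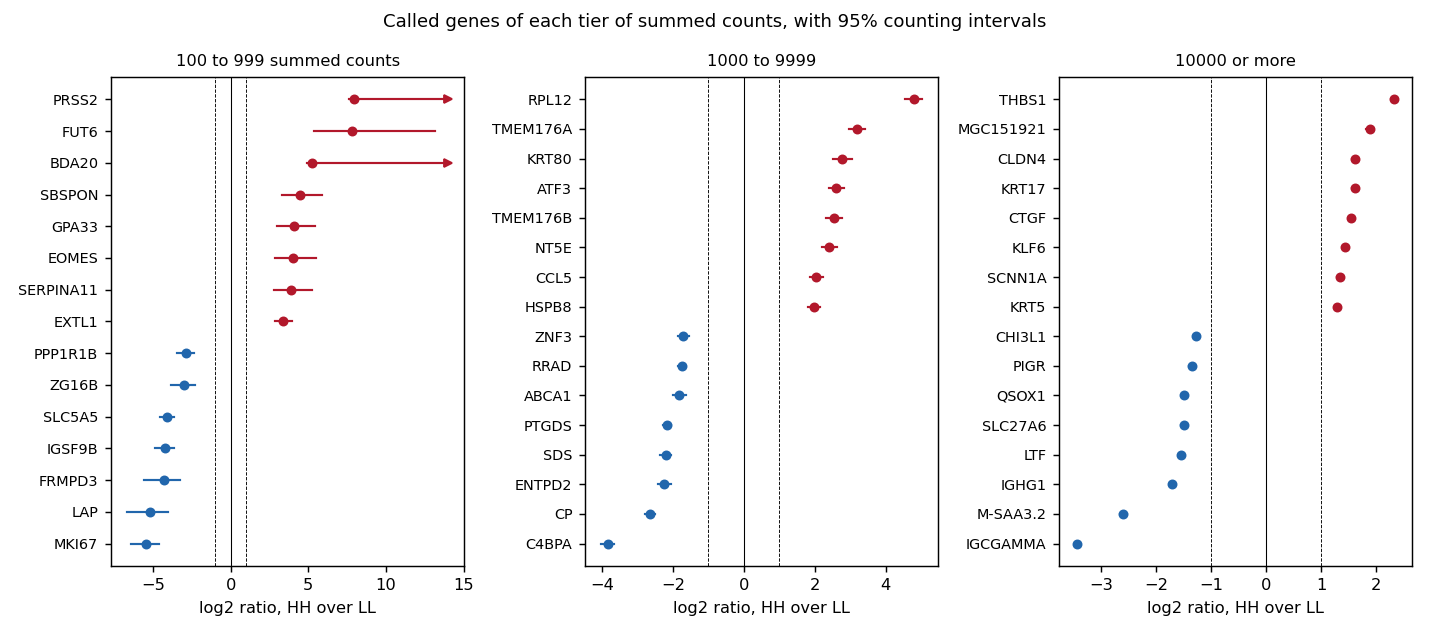
Each panel shows named genes from those with the largest called ratios in 1 tier of summed counts, with the log2 ratio of HH over LL on the horizontal axis. Points are ratios, bars are exact 95% counting intervals, arrows mark intervals without an upper end because LL had 0 counts, dashed lines mark 2-fold, and red is higher in HH and blue higher in LL. The bars shrink from the scarce to the abundant tier, where even the bars of THBS1 and IGCGAMMA are narrower than their symbols.

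In the middle tier, from 1000 to under 10000 counts, 70 named genes were called higher in HH, of which the 8 furthest past 2-fold are described. The neighbouring genes TMEM176A and TMEM176B, for membrane proteins of dendritic and other cells, had 1833 counts in HH and 184 in LL (log2 ratio 3.18) and 1278 in HH and 199 in LL (2.55). KRT80, an epithelial keratin, had 1080 in HH and 143 in LL (2.78). ATF3, a transcription factor induced by stress, had 1347 in HH and 201 in LL (2.61), and HSPB8, a small heat shock protein, had 1517 in HH and 349 in LL (1.98). NT5E, the surface enzyme that makes adenosine from AMP, had 1202 in HH and 206 in LL (2.41), and CCL5, a chemokine that attracts T cells, had 1234 in HH and 272 in LL (2.04). RPL12 led this tier by ratio, and it is taken up with its pseudogenes below.

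In the middle tier 23 named genes were called higher in LL, and the 8 furthest past 2-fold had varied roles. C4BPA, which restrains the classical complement pathway, had 273 counts in HH and 3561 in LL (log2 ratio −3.84, interval −4.03 to −3.66). CP, for the copper protein ceruloplasmin, had 497 in HH and 2832 in LL (−2.65), and PTGDS, a prostaglandin D synthase, had 961 in HH and 3918 in LL (−2.16). ENTPD2, a surface enzyme that splits ATP, had 292 in HH and 1252 in LL (−2.24). It went the opposite way from NT5E, and other genes of the purine pathway outside the cell are not given here. SDS, the liver enzyme serine dehydratase, had 403 in HH and 1688 in LL (−2.20). RRAD, a small GTPase of the RAS family, had 1122 in HH and 3446 in LL (−1.76), ABCA1, the exporter of cholesterol, 299 in HH and 957 in LL (−1.82), and ZNF3, a zinc finger gene, 515 in HH and 1523 in LL (−1.70).

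Below 1000 counts, the lower library held anything from 0 to over 100 counts of the genes named here. PRSS2, a trypsinogen gene, had 808 counts in HH and 0 in LL. With LL set to a floor of 3 counts, its log2 ratio was 7.94 (245-fold higher in HH), and its interval began at 7.63. FUT6, a fucosyltransferase gene, had 250 in HH and 1 in LL (log2 ratio 7.83) with a counting interval from 5.34 to 13.1. CYP4B1, a fatty acid-oxidising cytochrome, had 129 in HH and 13 in LL (3.17), and CCL21, a chemokine of lymphatic vessels, had 308 in HH and 45 in LL (2.64). GPNMB, a glycoprotein of macrophages and other cells, had 632 in HH and 105 in LL (2.45). In the other direction, SLC5A5, the iodide transporter of thyroid and lactating mammary gland, had 43 in HH and 655 in LL (−4.07), and LAP, an antimicrobial peptide, had 6 in HH and 200 in LL (−5.20). CDH16, a cadherin of kidney and thyroid, had 75 in HH and 423 in LL (−2.63), ALOX15B, a lipoxygenase, had 136 in HH and 683 in LL (−2.47), and RGS5, known from pericytes, had 149 in HH and 670 in LL (−2.31). The intervals were widest where the lower library had fewest counts, as for FUT6, and narrower for genes such as GPNMB (2.15 to 2.76) and RGS5 (−2.57 to −2.05).

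Genes were also grouped by the stem of their symbols into families. In 57 families with tested genes there were 2094 genes, with 69 called toward HH and 22 toward LL, or 4.35% against 2.87% over all genes. At least 1 member was called in all but 15 of these families. By share called, keratins (50%), claudins (44.4%), chemokines and receptors (35.3%), aquaporins (1 of 3) and cytochromes P450 (25%) came first.

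Keratins had the largest median of the families with 9 or more tested genes. Their median log2 ratio was 1.07, and 5 of 10 were called higher in HH and none in LL, against 1.87% higher in HH over all genes. KRT17 had 12936 counts in HH and 3858 in LL (1.61), KRT5 had 12968 in HH and 4822 in LL (1.29), and KRT14 had 563 in HH and 158 in LL (1.70); these are keratins of the basal layer. KRT18 had 3104 in HH and 843 in LL (1.74), while its luminal partner KRT8 had 16732 in HH and 10376 in LL (0.55) and KRT19, the most abundant keratin RNA by counts, had 61245 in HH and 31040 in LL (0.84). KRT10 lay below 0, with 114 in HH and 169 in LL (−0.71), so the members did not all lie on 1 side of even. The share of basal cells in each library cannot be told apart from keratin RNA per cell.

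Claudins had 4 of 9 tested members called higher in HH and none in LL, against 1.87% and 1.0% over all genes, with a median of 0.70. CLDN4 had 10321 counts in HH and 3066 in LL (1.61), CLDN3 had 11640 in HH and 4952 in LL (1.10), CLDN1 had 339 in HH and 116 in LL (1.41) and CLDN23 had 320 in HH and 60 in LL (2.28). CLDN7 and CLDN8 were near even, CLDN7 with 6059 in HH and 5691 in LL and CLDN8 with 3103 in HH and 2921 in LL. The family therefore held called and near-even members of similar abundance. Cadherins, a family of adhesion proteins, had no member called higher in HH and 2 of 18 called higher in LL, against 1.0% over all genes. As a family they lay the other way, with a median of 0.33, 13 members above 0 and 5 below it. The called cadherins were CDH16, given above, and CDH26, with 68 in HH and 215 in LL (−1.80). CDH1, the E-cadherin of epithelia, had 6226 in HH and 4441 in LL.

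Cytoskeleton and matrix families had fewer calls, to be read against 1.87% higher in HH and 1.0% higher in LL over all genes. Tubulins had 3 of 13 higher in HH and none in LL, with a median of 0.71, namely TUBA1A (2596 counts in HH, 953 in LL), TUBB2A (736 in HH, 252 in LL) and TUBA1D (96 in HH, 16 in LL). Collagens had 2 of 24 higher in HH and none in LL, with a median of 0.53. These were COL12A1, a chain that lies along collagen fibrils, with 3782 in HH and 1123 in LL (1.61), and the scarce COL21A1, with 92 in HH and 24 in LL (1.80). The fibril-forming chains COL1A1 and COL1A2 had log2 ratios of 0.84 and 0.82, COL3A1 had −0.28 and the basement membrane chain COL4A1 had −0.24, and none of them was called. Of 29 metalloproteinases, MMP2, which cleaves basement membrane collagen, had 3682 in HH and 1179 in LL (1.51) and ADAMTS1 had 1305 in HH and 476 in LL (1.32), and none was called higher in LL. Of 15 serpins, 3 were higher in HH. Among them were SERPINA11, with 114 in HH and 7 in LL (3.89), and SERPINA3-1, with 139 in HH and 43 in LL (1.56). Laminins had 1 of 10 called, with a median of 0.31, and integrins 1 of 23, with a median of 0.18. These lone calls, not read as traits of their families, were LAMB3 and ITGB4, chains that anchor the epithelium to its basement membrane. LAMB3 had 2246 in HH and 895 in LL, and ITGB4 had 4805 in HH and 2065 in LL. ITGB4 was only just past 2-fold, at 1.08 (1.01 to 1.16), and its call ended under scaling by the upper quartile.

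**Figure D3:**
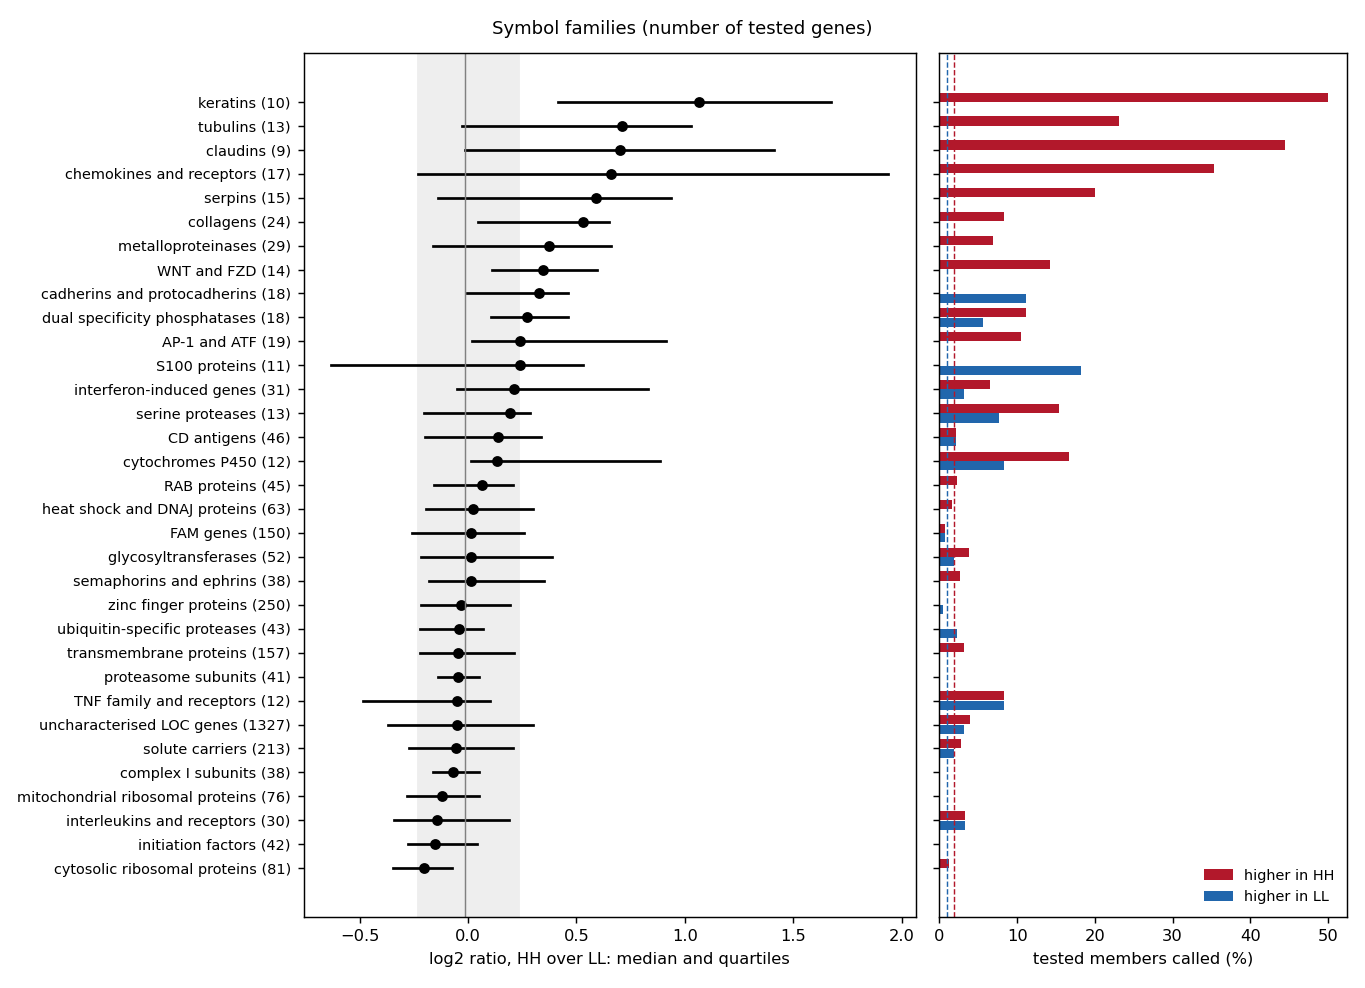
On the left, points are the median log2 ratio of HH over LL of each symbol family and lines its quartiles, with the number of tested genes in brackets and the quartile range of all genes shaded. On the right, bars give the percentage of tested members called higher in HH (red) and higher in LL (blue), and dashed lines the shares over all genes, 1.87% and 1.0%. Keratins, tubulins, claudins and chemokines have the highest medians, and ribosomal, initiation factor, complex I and proteasome genes lie near or below 0 with narrow quartiles.

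Chemokines and their receptors had 6 of 17 called higher in HH, against 1.87% over all genes, and none in LL. CCL5, CCL21, CCL2, CCL1 and CCL16 were ligands, and ACKR3, a receptor that takes up CXCL12 without classical signalling, had 362 counts in HH and 86 in LL (1.94). CXCL3, a neutrophil-attracting ligand, was the most counted of the family and lay the other way, with 6897 in HH and 11551 in LL (−0.88), and CXCL14 had 2694 in HH and 3817 in LL (−0.64). Neither was past 2-fold. None of the 5 T and natural killer cell markers was called, and they lay on both sides of even. CD3D had 123 in HH and 48 in LL (1.22), CD3E 428 in HH and 192 in LL (1.02) and CD2 160 in HH and 127 in LL (0.20). CD3G had 37 in HH and 43 in LL (−0.35) and NKG7 128 in HH and 124 in LL (−0.09), and the part of T cells in the chemokine values was not tested. IL7R, a receptor of lymphocytes, had 302 in HH and 93 in LL, and IRF4, a factor of plasma cells and lymphocytes, had 53 in HH and 187 in LL.

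The families of transcription factors and signalling genes described in this paragraph held 1 to 3 calls each, and others, such as the HOX genes, held none. At the 2.87% called over all genes, families of this size would hold less than 1, so a lone call is not read as a trait of its family. FOSB and ATF3 were the called members of the 19 AP-1 and ATF genes. FOSB had 776 counts in HH and 94 in LL (2.91), whereas FOS had 1989 in HH and 2073 in LL (−0.20), JUNB had 3498 in HH and 3483 in LL (−0.13) and JUN had 11082 in HH and 5700 in LL (0.82). KLF6 was the only called one of 16 KLF and EGR genes, and KLF5 had 4035 in HH and 1887 in LL (0.96). EGR1, which like FOS is induced within minutes of a stimulus, had 2561 in HH and 2283 in LL (0.03). Of 18 dual specificity phosphatases, DUSP8 and DUSP14 were higher in HH and DUSP26 higher in LL, the last with only 27 counts in HH and 88 in LL. WNT4, a ligand of mammary duct branching, had 193 in HH and 30 in LL (2.55) and WNT5B had 278 in HH and 95 in LL (1.41), and none of the 14 WNT, FZD and related genes was called higher in LL. CCND1, cyclin D1, had 252 in HH and 52 in LL (2.14), the only call among 11 cyclins, and IGFBP5, a binding protein of insulin-like growth factors, had 2358 in HH and 716 in LL (1.58).

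Solute carriers, the largest transporter family, had 6 of 213 called higher in HH (2.82%) and 4 higher in LL (1.88%), around a median of −0.05. These shares are near the 1.87% and 1.0% over all genes. Higher in HH were SLC34A2, a phosphate transporter, with 5971 counts in HH and 1755 in LL (1.63), SLC30A2, the zinc exporter that loads milk, with 2052 in HH and 596 in LL (1.65), SLC1A2, a glutamate transporter, with 6342 in HH and 2553 in LL (1.18), the glucose transporters SLC5A1 and SLC2A3, and SLC28A1. Higher in LL beside SLC5A5 and SLC27A6 were SLC38A3, a glutamine transporter, with 158 in HH and 408 in LL (−1.51), and SLC39A14, an importer of zinc and iron, with 1847 in HH and 3592 in LL (−1.10). The call of SLC39A14 ended under scaling by library totals and by DESeq2 size factors. Among these called carriers the zinc exporter was thus higher in HH and the zinc importer higher in LL, which is not read as a trait of zinc transport. Cytochromes P450 had 2 of 12 called higher in HH and 1 in LL, among them CYP11A1, the enzyme that starts steroid synthesis, at 3404 counts in HH and 925 in LL (1.74), and CYP1A1, an enzyme induced through the aryl hydrocarbon receptor, at 102 in HH and 257 in LL (−1.47).

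Several families had no call, to be read against 2.87% over all genes, at which a family of up to 40 would hold about 1 call or none. None was called among 76 mitochondrial ribosomal proteins, 42 translation initiation factors, 41 proteasome subunits, 38 complex I subunits, 28 myosins, 26 TGF-beta family genes or 17 HOX genes. Of 250 zinc finger proteins 1 was called, ZNF3. The 81 cytosolic ribosomal proteins had a median log2 ratio of −0.20, with quartiles at −0.34 and −0.08, and RPL12 was the only one called.

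The call of RPL12 is set here beside the counts of its listed pseudogenes, whose sequences were not compared. RPL12 had 4426 counts in HH and 146 in LL (4.78), while LOC784762, described as its pseudogene, had 205 in HH and 5147 in LL (−4.79). A further listed pseudogene, LOC101903403, had 116 in HH and 74 in LL. Summed over the 3 symbols there were 4747 counts in HH and 5367 in LL (log2 ratio −0.31, interval −0.37 to −0.26), inside the range of the other ribosomal proteins. How reads that match several copies were assigned, and whether strand was used, are points on which the sources used here say nothing, so calls on close copies, overlapping genes and antisense genes are uncertain.

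Of 201 tested pseudogenes, 57 could be matched to 49 tested parent genes, and 7 of those sets held a call. In 5 of them, RPL12 included, the sum of parent and pseudogene was inside 2-fold although 1 or more of its symbols was called, with summed log2 ratios from −0.31 to 0.44. NSA2, a ribosome assembly factor, had 51 counts in HH and 197 in LL (−2.09), LOC100300380 had 730 in HH and 542 in LL, and their sum had a log2 ratio of −0.06 (−0.20 to 0.09). The pseudogenes of SDHC, COX7B and BNIP3, a complex II subunit, a cytochrome oxidase subunit and a mitophagy receptor, were each called higher in HH. The sums with their parents had log2 ratios of −0.26, 0.44 and 0.33. The uncalled parents SDHC (499 in HH, 660 in LL) and BNIP3 (1017 in HH, 780 in LL) held most counts of their sets, as the uncalled LOC100300380 did beside NSA2. Their sums were thus nearly set by 1 symbol and do not show how reads were divided. ANXA1, the phospholipid-binding annexin A1, and its pseudogene both lay above 0, with 5648 in HH and 3169 in LL for the parent and 2978 in HH and 262 in LL for LOC511937, and the sum stood at 1.19 (1.14 to 1.25). PRDX6, a peroxiredoxin, had 6541 in HH and 2743 in LL, and with its pseudogene LOC786533 the sum was 1.10 (1.03 to 1.16). For ANXA1 and PRDX6 the summed value was past 2-fold.

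**Figure D4:**
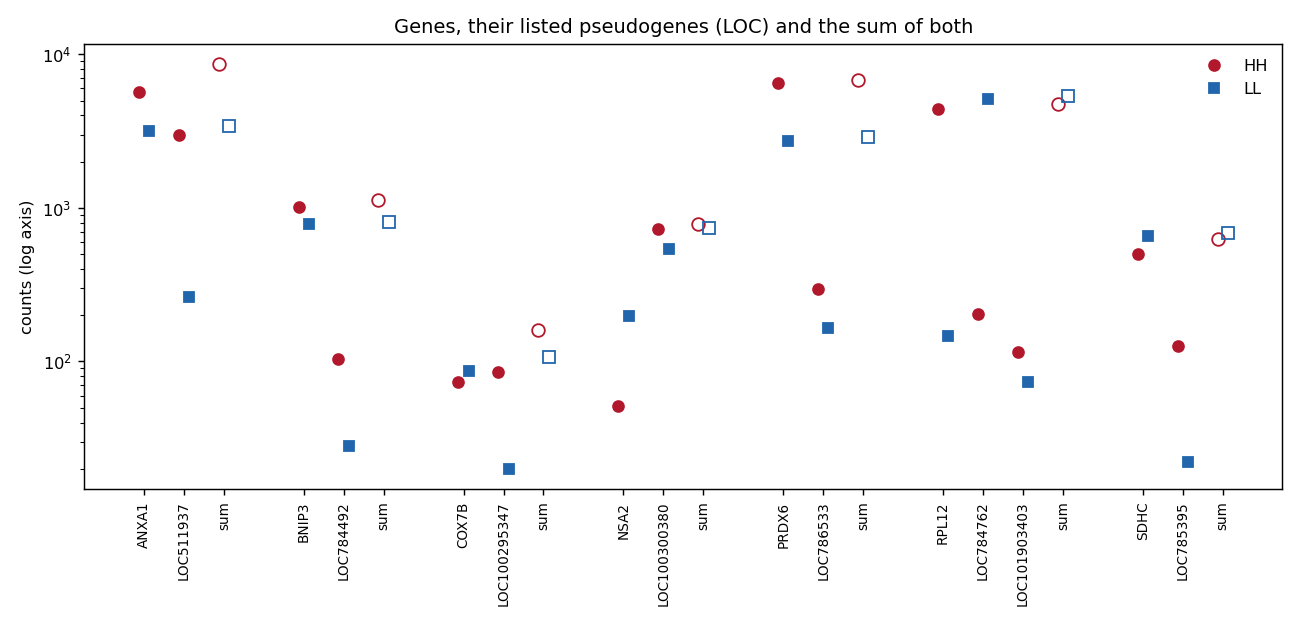
Filled symbols are the counts of a gene or of its listed pseudogene (names starting with LOC) on a log axis, open symbols the sum over the set, red circles HH and blue squares LL. For RPL12 and its pseudogene LOC784762 the libraries swap places while the sums nearly meet, and for ANXA1 and PRDX6 the sums stay apart.

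Other copies were compared through their best human match. Among 118 human best matches shared by several tested bovine genes, 1 held calls in both directions: ABCC4, a transporter of the multidrug resistance group. Of its 5 symbols, 4 were called higher in HH and 1 higher in LL. Their sum was 2911 counts in HH and 554 in LL (log2 ratio 2.26, interval 2.12 to 2.39), which is past 2-fold. With genes described as like ABCC4 added, 15 tested symbols had 7 calls higher in HH and 4 higher in LL, against 1.87% and 1.0% over all genes. They ran from LOC101908868, with 5 counts in HH and 235 in LL (−5.69), to LOC100847245, with 261 in HH and 12 in LL (4.31). Summed, the 15 had 5801 counts in HH and 3183 in LL (log2 ratio 0.73, interval 0.67 to 0.79), which is not past 2-fold.

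Major histocompatibility genes, which present peptides to T cells and are highly polymorphic with close copies, had 4 of 16 called, against 2.87% over all genes. JSP.1, a class I gene, had 3638 counts in HH and 1000 in LL (1.73), LOC614091 had 2155 in HH and 615 in LL (1.67) and LOC788634 had 497 in HH and 41 in LL (3.46), both described as class I alpha chain genes. LOC100848815, described as a DQA1 class II gene, had 17 in HH and 308 in LL (−4.32). The other class II DQ genes lay on both sides of even, BOLA-DQA2 with 211 in HH and 86 in LL and BOLA-DQA5 with 88 in HH and 203 in LL. BOLA and BOLA-DRA, with 16452 and 1420 counts in HH and 14423 and 1063 in LL, were near even. Over all 16, HH had 30462 counts and LL 22504.

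Immunoglobulin and T cell receptor chain genes had 11 of 22 called toward LL, against 1.0% over all genes, and none called higher in HH. They took 0.468% of all counts in HH and 1.68% in LL, and their median log2 ratio was −1.51. Besides IGHG1 and IGCGAMMA, LOC101908138 had 12059 counts in HH and 48560 in LL (−2.15), LOC100294952 had 3820 in HH and 12431 in LL (−1.84) and LOC100847119 had 1229 in HH and 8243 in LL (−2.88). IGHM, the mu heavy chain of immunoglobulin M, lay the other way with 4560 in HH and 2603 in LL (0.67), and JCHAIN, which joins immunoglobulin A and M, had 3359 in HH and 2758 in LL (0.15). MZB1, a chaperone of antibody-secreting cells, had 109 in HH and 505 in LL (−2.35). The B cell genes CD79A and MS4A1 were scarce, with 25 and 10 counts in HH and 62 and 21 in LL. The part of antibody-secreting cells in these values was not tested, and the chain genes share sequence, so single symbols are uncertain.

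The share of calls was higher among symbols without a name and among non-coding types. Of 1327 LOC symbols, 53 were called toward HH and 42 toward LL, which is 7.16%, and of 11477 named genes 187 were higher in HH and 86 in LL, or 2.38%. Messenger RNAs without a best human match were called in 5.52% of cases and those with one in 2.38%. Non-coding RNAs had 15 of 679 higher in HH and 17 higher in LL (4.71%), so calls were about as many in each direction there. LOC783399, an uncharacterised protein gene, had 1356 counts in HH and 21 in LL (5.88), and LOC507787 had 19 in HH and 744 in LL (−5.43). The miscellaneous RNA LOC107131399 had 5887 in HH and 654 in LL (3.03). None of the 13 microRNA, microRNA precursor, transfer RNA and ribosomal RNA entries that reached the minimum of 100 counts was called.

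The RefSeq annotation of assembly ARS-UCD2.0 placed 11910 of the tested genes in order, and 305 of them were called. Of these, 48 (15.7%) had as their immediate neighbour among tested genes another gene called in the same direction. Among genes higher in HH the share was 14.4%, against 3.30% of all placed genes with an HH-high neighbour, and among genes higher in LL it was 18.4%, against 1.70% of all placed genes with an LL-high neighbour. When neighbours were taken from the order of all RefSeq genes, 27 remained. Neighbours are often copies of one another, and several of the pairs are.

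The 48 genes formed 21 runs, of which 4 had 3 or more genes. The longest had 5 genes, all higher in LL, and held PRSS22, a serine protease with 1620 counts in HH and 4007 in LL (−1.44), ZG16B, a lectin-like secreted protein with 18 in HH and 132 in LL (−3.01), LOC617302, whose best human match is the protease PRSS21, and LOC107131805 and LOC104975830. The next tested genes on either side, KCTD5 and TCEB2, had log2 ratios of 0.38 and −0.19. A run higher in HH held SUSD2 with 282 in HH and 45 in LL (2.51), and the gamma-glutamyl transferases GGT5, with 1861 in HH and 439 in LL (1.95), and GGT1, with 3140 in HH and 898 in LL (1.67), enzymes that split glutathione and leukotrienes. The genes flanking it, CABIN1 and SNRPD3, had −0.03 and −0.05. CLDN4 and CLDN3 lay beside ABHD11, a mitochondrial hydrolase with 1427 in HH and 370 in LL (1.81), and the next genes were ELN, for elastin, at 0.93 and WBSCR22 at 0.14. The last run held the lipocalin-type genes MGC151921 and BDA20 and LOC100300091, with PUDP at −0.21 and LOC107132092 at −0.29 on its sides. All of these flanking genes lay inside 2-fold.

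**Figure D5:**
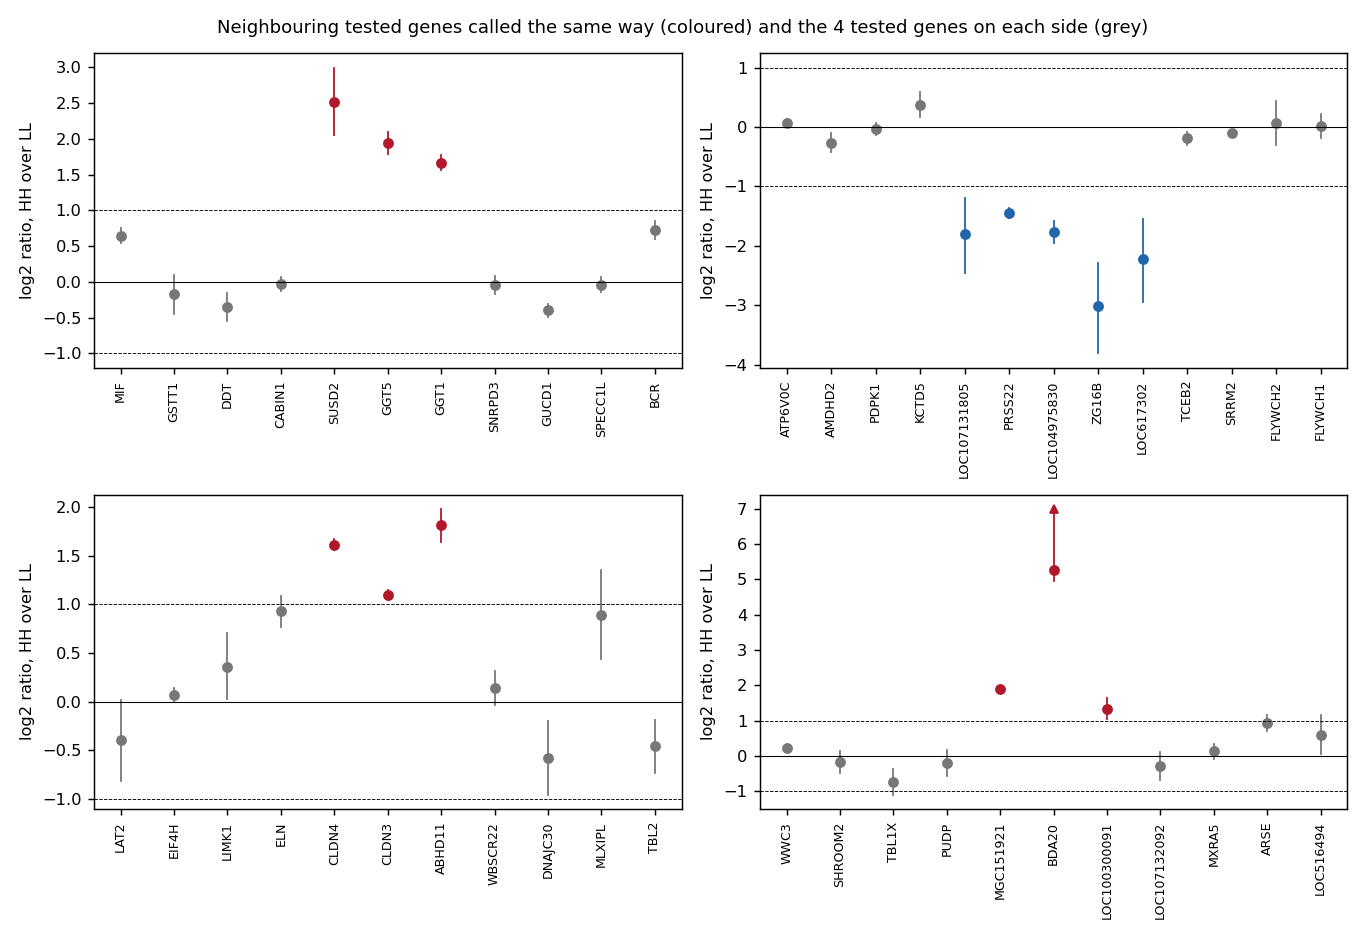
Each panel shows 1 run of at least 3 neighbouring tested genes called in the same direction (red higher in HH, blue higher in LL) with the 4 tested genes on either side in grey, in RefSeq order. The vertical axis is the log2 ratio of HH over LL, bars are exact 95% counting intervals, dashed lines mark 2-fold, and the arrow marks an interval without an upper end. The flanking genes lie inside 2-fold in all 4 panels.

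The other 17 runs were pairs, 10 higher in HH and 7 higher in LL. Among the pairs higher in HH were CCL16 with CCL5, CCL1 with CCL2, KRT14 with KRT17 and TMEM176B with TMEM176A, each made of related genes. Others joined unrelated genes, such as SMOC2, a calcium-binding matrix protein with 1271 counts in HH and 397 in LL (1.54), with THBS2, thrombospondin 2, with 430 in HH and 76 in LL (2.36). MFAP5, a microfibril protein with 1076 in HH and 390 in LL, lay beside SLC2A3. Among the pairs higher in LL were SAA3 with M-SAA3.2, S100A12 with S100A9, IGHG1 with IGCGAMMA, and CHI3L1 with MYBPH, a muscle protein gene with 402 in HH and 1072 in LL (−1.55). CDH16 lay beside RRAD, which shares no family with it. SAA3 was only just past 2-fold, at −1.06 (−1.10 to −1.02), and its call ended under scaling by library totals.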

How the data were processed

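The values are raw read counts per gene, whole numbers and not normalised, which the authors deposited as 1 table with a column for HH, a column for LL and, for each gene, its type, description and best human match. Per the labels' protocols, RNA over 18 nucleotides was extracted with TRIzol, treated with DNase and made into libraries with a total RNA kit for Ion sequencers. The sources used here do not give the aligner, counter, genome build, strand use or treatment of shared reads.

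From the counts, trimmed mean of M values factors were computed (edgeR 4.0.16, R 4.3.3) over genes with at least 1 count. Among genes with at least 100 summed counts, a gene was called when the whole exact 95% interval (scipy 1.17.1) lay past 2-fold, and a count of 0 was set to a floor of 3 counts (0.170 CPM in HH, 0.187 in LL). Intervals and floors cover counting error only, and without molecular identifiers several reads can come from 1 molecule. At the minimum, the 27 genes with exactly 100 counts had a median log2 ratio of −0.20, and the 25 with exactly 99, which were left out, 0.13. The steps were tested on simulated data.

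The members, families and lists were chosen with earlier results of these data known. Genes were named by rule: the 20 largest ratios each way, ranked by whichever end of the interval is closer to 0, the 8 largest each way per tier of counts, the 15 most abundant genes per library, up to 5 called genes of each other gene type, up to 4 called members of families with 2 or more, tested genes with at most 3 counts in 1 library, copies with opposite calls, and runs of 3 or more neighbours. Pseudogene sets, histocompatibility genes, neighbour pairs, uncalled family members and single called members of families were chosen after their values were seen, and symbols that share a family's stem without belonging to it were taken out then too. RefSeq (ARS-UCD2.0), in which 11946 tested symbols matched, gave names and gene order only. A planned description of promoter and protein sequences was not run, as no such sequences were used here. Results on a few genes and groups are not reported here because some items are withheld for evaluation.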

Additional observations from a re-analysis of the deposited data

How the results depend on the processing

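Scaling shifted every log2 ratio by the same small amount, at most 0.05, and the calls held with few exceptions. The median of all tested genes, −0.013 under trimmed means, was 0.034 by library totals, 0.00345 with the size factors of DESeq2 1.42.0 and −0.034 with upper quartiles, and families with medians nearer to 0 than this have no stable sign. With the 240 genes higher in HH and 128 higher in LL, other scalings gave 236 to 272 in HH and 119 to 133 in LL. The log2 ratios of 175 genes were followed one by one under each scaling. Among these 175, SAA3 (−1.01) and SLC39A14 (−1.05) lost their call by library totals, and SLC39A14 (−1.08) by DESeq2. The histone gene HIST1H1C (1.45) and ITGB4 (1.06) lost theirs by the upper quartile. The other called genes were not followed singly. Those with an interval ending just past 2-fold, such as AOX4 and PRUNE2, can lose their call too. The minimum mattered more: 320 and 199 genes were called with a minimum of 20 counts, 344 and 218 with none, and 137 and 66 with a minimum of 500. The interquartile range of all ratios, 0.467 in the main comparison, was 0.545 at 20, 0.737 with none, 0.403 at 500 and 0.450 without LOC symbols, and the median was −0.024 with no minimum. A point ratio past 2-fold called 452 and 229 genes and 153 family members in place of 91, and a whole interval past 4-fold called 49 and 34, which put 59.0% of calls in HH instead of 65.2%. Neighbouring calls numbered 48 among tested genes and 27 in the order of all RefSeq genes. Without the immunoglobulin and T cell receptor chains, an alternative chosen after seeing the data, 240 and 117 genes were called. No paired analysis was possible because HH and LL have 1 library each. For the same reason no library could be left out, and depth limits what can be said of genes near the minimum.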

Other observations

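Cell division genes lay on both sides of even. MKI67, the proliferation marker Ki-67, had 12 counts in HH and 472 in LL (−5.44), while NCAPG, a condensin subunit, had 457 in HH and 128 in LL (1.70). Of 16 tested genes of DNA replication and mitosis, chosen after values were seen, only these were called (12.5%, against 2.87% over all genes). The 15 without MKI67 had a median log2 ratio of −0.05. PCNA, the replication clamp, had 804 counts in HH and 690 in LL, the helicase gene MCM7 1312 in HH and 1233 in LL, and the mitotic kinase gene PLK1 215 in HH and 183 in LL. Genes of DNA replication and mitosis below the count minimum mostly lay lower in HH. Among them were TOP2A with 12 in HH and 60 in LL, and CENPF with 3 in HH and 45 in LL. RRM2 had 3 in HH and 40 in LL, and ASPM had 1 in HH and 39 in LL. CDK1, with 42 in HH and 24 in LL, did not.

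Over the whole table, 8 genes had 0 counts in LL and 20 or more in HH, PRSS2 and BDA20 among them, and 8 had 0 in HH and 20 or more in LL. The others named here were below the minimum of 100 counts. DNER, a NOTCH ligand of neurons, had 0 in HH and 97 in LL, and KRT13, a keratin of stratified epithelia, had 0 in HH and 61 in LL, the opposite direction from the called keratins. CRNN, a late marker of stratified epithelia, had 1 in HH and 28 in LL. HHLA2, a surface protein of the B7 group, had 44 in HH and 0 in LL, and SPATA16, a testis gene, had 86 in HH and 1 in LL.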
